A study of Mus musculus with 6 samples.

Results

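Collagen genes were compared for open chromatin between the posterior second heart field (pSHF) and the atria (HT) of the mouse embryo. They were taken as all protein-coding genes whose mouse symbol is Col, a number, the letter a and a number. These were 44 of 21627 protein-coding genes, in 3 classes of 11 fibrillar, 6 basement membrane and 27 other collagens. A peak was given to a collagen gene if that gene's body was the nearest protein-coding gene body and lay within 100 kb. This gave 160 of 44018 pSHF peaks and 168 of 49267 HT peaks.

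The pSHF is the mesoderm dorsal to the heart from which cells join the venous pole, and the atria are differentiated heart chambers built in part from it. Both groups came from wild-type CD1 embryos at embryonic day 10, an outbred stock, with 3 samples of the pSHF and 3 of the atria. Tissue was cut out by hand, pooled over embryos and opened with Tn5 transposase, which cuts DNA not covered by nucleosomes (ATAC-seq). The labels give no treatment and no engineered allele for either group. Dissected pieces hold several cell types, and fewer cells of a type and less open chromatin per cell cannot be told apart in them.

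Collagens are triple-helical proteins of the extracellular matrix. Fibrillar collagens assemble into the banded fibrils that give tissue its tensile strength. Collagen IV forms the sheet-like network of basement membranes, under epithelia, around muscle cells and around vessels. The other collagens coat fibrils, form beaded filaments, span the cell membrane or sit at the edge of basement membranes. In the embryonic heart, fibrillar collagens are known from the cushions, the valves and the epicardium, and collagen IV from the basement membranes of endocardium and myocardium.

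There was 1 deposited peak list per tissue, so no value belongs to a single sample, no spread between samples could be set against a difference, and no p-value is given. A peak with 1 bp or more in common with any peak of the second tissue is called shared, and every other peak restricted. A restricted site was not called in the second tissue, which does not make it closed there. Fold enrichment over the local background, −log10 q and percentile of fold within a list are the authors' values or are derived from them. They are read within 1 list, since percentiles from lists of different length show no change. Where values of both lists are set side by side at a shared site, no change is read from them. Read totals are unknown, but the recovered background was 0.857 reads per position in the pSHF list and 0.824 in the HT list, and the weakest summit held 5 reads in each. Of the marker lists, the pSHF list of 8 genes held 31 restricted peaks of pSHF and 6 of HT, and that of 9 atrial cardiomyocyte genes held 1 of pSHF and 28 of HT. Isl1 and Hoxb1 had equal numbers in both lists, and Tnnt2 had the 1 pSHF-restricted peak of the cardiomyocyte genes and no HT-restricted peak.

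Promoters were examined first, since they carry sequence that can be shown. RefSeq promoter windows, from 250 bases before to 50 after a transcription start on GRCm38.p6, were at hand for 35 collagen genes (38 windows). Peaks of both lists overlapped the windows of 15 genes (42.9%, against 55.6% of all genes with a window). Peaks of neither list did so for 14 genes (40%, against 39.2%). The pSHF list alone had peaks over the windows of 4 genes (11.4%, against 2.28%), and the HT list alone those of 2 genes (5.71%, against 2.89%). All peaks of these 6 genes over their windows were of modest height, with fold enrichments of 3.22 to 5.15 in pSHF and of 4.90 and 5.98 in HT.

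The pSHF-only promoters were those of Col6a1, a chain of the beaded-filament collagen VI, Col13a1, a transmembrane collagen, Col19a1, a fibril-associated collagen, and Col27a1, a fibrillar collagen of cartilage. The Col6a1 peak at chr10:76725954-76726071 had a fold of 5.15 and 12 reads at its summit, and the nearest HT peak lay 7102 bp away. The Col13a1 peak at chr10:61979041-61979223 had a fold of 4.11 and 13 reads, and the nearest HT peak lay 1718 bp away. The Col19a1 and Col27a1 peaks had folds of 4.45 and 3.22 and lay 505 and 558 bp from an HT peak, so for these 2 genes both lists held a peak near the start. Both windows lie inside the annotated gene body and are not printed. The stretches before the start of Col6a1 and Col13a1 are shown because a pSHF peak and no HT peak reached into them, over the bases next to the gene. Capitals mark a match to one of 9 short motifs on either strand. The matches in both stretches lie outside the peaks.
Col6a1: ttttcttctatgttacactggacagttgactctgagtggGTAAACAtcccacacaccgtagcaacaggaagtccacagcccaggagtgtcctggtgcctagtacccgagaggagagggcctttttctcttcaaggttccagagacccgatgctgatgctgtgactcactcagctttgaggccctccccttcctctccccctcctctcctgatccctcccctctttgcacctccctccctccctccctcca
Col13a1: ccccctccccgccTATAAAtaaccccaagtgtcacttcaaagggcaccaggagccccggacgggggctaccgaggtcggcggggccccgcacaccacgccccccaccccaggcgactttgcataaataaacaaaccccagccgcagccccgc

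The HT-only promoters were those of Col5a3, a minor fibrillar collagen, and Col8a2, a short-chain collagen of sheet-like networks. The Col5a3 peak at chr9:20814981-20815313 had a fold of 5.98 and 12 reads, and it was the gene's single peak in either list. The Col8a2 peak at chr4:126286704-126286879 had a fold of 4.90 and 9 reads, and the nearest pSHF peak lay 9739 bp away, inside the gene. Their sequences are shown as the counterpart of the pSHF-only promoters.
Col5a3: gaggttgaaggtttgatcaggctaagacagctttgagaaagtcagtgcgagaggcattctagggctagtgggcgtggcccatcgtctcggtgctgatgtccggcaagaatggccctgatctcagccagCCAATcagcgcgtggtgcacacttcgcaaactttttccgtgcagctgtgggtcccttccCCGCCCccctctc
Col8a2: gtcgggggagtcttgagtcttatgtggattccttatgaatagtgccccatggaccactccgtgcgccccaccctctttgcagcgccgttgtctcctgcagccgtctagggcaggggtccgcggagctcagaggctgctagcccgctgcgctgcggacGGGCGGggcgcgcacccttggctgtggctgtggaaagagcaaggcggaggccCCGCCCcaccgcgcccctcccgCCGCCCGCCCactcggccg

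Promoters with a peak in both lists included those of Col1a2, a chain of the main fibril of connective tissue, Col11a1, a minor fibrillar collagen, and Col4a5, a collagen IV chain. They are shown as the start of a collagen I chain, the strongest fibrillar start and a basement membrane start. The Col1a2 promoter peak stood at a fold of 7.98 and percentile 86.0 of the pSHF list and at a fold of 4.89 and percentile 35.0 of the HT list. That of Col11a1 had a fold of 9.90 in the pSHF list (percentile 94.9) and 14.7 in the HT list (percentile 97.5), with 45 and 55 reads at the summits. That of Col4a5 had a fold of 7.59 in the pSHF list (percentile 83.5) and 5.55 in the HT list (percentile 50.6).
Col1a2: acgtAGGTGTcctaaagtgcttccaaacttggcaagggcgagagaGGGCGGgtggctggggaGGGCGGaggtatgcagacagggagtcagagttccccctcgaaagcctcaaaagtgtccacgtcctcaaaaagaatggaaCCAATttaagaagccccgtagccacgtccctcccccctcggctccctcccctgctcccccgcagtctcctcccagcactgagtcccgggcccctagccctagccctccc
Col11a1: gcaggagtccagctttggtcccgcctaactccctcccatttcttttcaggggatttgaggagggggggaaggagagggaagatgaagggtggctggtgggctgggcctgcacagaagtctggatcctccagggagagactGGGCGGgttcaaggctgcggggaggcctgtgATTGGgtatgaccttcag
Col4a5: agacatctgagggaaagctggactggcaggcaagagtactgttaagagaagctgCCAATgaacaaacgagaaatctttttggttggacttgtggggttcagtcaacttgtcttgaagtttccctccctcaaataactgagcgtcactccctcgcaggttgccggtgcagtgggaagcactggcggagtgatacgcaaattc

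The coordinates of these stretches on GRCm38.p6, whose chromosomes are those of mm10, are as follows. Col6a1 lies at chr10:76726045-76726294 on the minus strand, Col13a1 at chr10:61979207-61979358 on the minus strand, and Col5a3 at chr9:20815118-20815317 on the minus strand. Col8a2 lies at chr4:126286544-126286793, Col1a2 at chr6:4505368-4505617, Col11a1 at chr3:114030290-114030478 and Col4a5 at chrX:141475169-141475369, all on the plus strand. Bases inside the annotated gene body were left out, so the stretches of Col13a1, Col5a3, Col11a1 and Col4a5 stop short of the start used for their windows.

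The motifs searched were the CCAAT box, the GC box with the letters GGGCGG, and the TATA box, searched as TATAAA. For factors of heart and mesoderm they were the motif of forkhead proteins, searched as TGTTTAC, that of T-box proteins, searched as AGGTGT, and that of TEAD proteins, searched as GGAATG. The letters AGATAA were searched for factors of the GATA family. Those of SOX proteins were searched as AACAAT, and the core of the GLI site, at which Hedgehog signals act, as CCACCCA. The GC box stood in 23 of 38 collagen windows (60.5%), against 46.7% of 21044 windows of all genes. It stood in 14 of the 16 collagen windows that had a peak in both lists, which had a median GC content of 63.3%. The same share was not counted over windows of all genes with a peak in both lists. The 14 of 16 can therefore not be read as particular to collagen genes. The windows of Col6a2 overlap each other, as do those of Col4a1 and Col4a2. Over all collagen windows the median GC content was 59.8%, against 56.7% over all windows, and its part in the motif counts was not tested. CCAAT was found in 13 collagen windows (34.2%, against 38.5% of all). The forkhead motif was found in 1 collagen window (2.63%, against 3.03% of all), that of Col6a1, where it reads GTAAACA on the printed strand. The GLI core stood in 3 windows (7.89%, against 9.55%), the T-box motif in 3 (7.89%, against 12.8%), the TATA box in 5 (13.2%, against 12.7%) and the TEAD motif in 5 (13.2%, against 13.5%). The GATA motif stood in 2 windows (5.26%, against 9.68%) and the SOX motif in 1 (2.63%, against 8.91%). These matches describe letters and do not show binding.

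For 9 genes no window was at hand, and peaks within 1 kb of either gene end were counted instead. Col1a1, Col2a1, Col4a3 and Col5a2 had shared peaks there, and Col9a3 had a peak in the pSHF list only. Col14a1 had a restricted peak in each list, 47 bp apart. Col12a1, Col22a1 and Col26a1 had no peak within 1 kb of an end.

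Across all collagen genes, 80 of 160 pSHF peaks were pSHF-restricted (50%, exact 95% interval 42.0 to 58.0, counting error only), against 31.8% of the peaks of all genes. Of the HT peaks, 92 of 168 were HT-restricted (54.8%, 46.9 to 62.4), against 43.7% of the peaks of all genes. The intervals of both shares lay above the share over all genes. Without peaks near gene ends, the shares were 55.5% in pSHF, against 44.6% over all genes, and 62.1% in HT, against 57.6%. Among peaks with −log10 q of at least 5, the pSHF share was 17.0% (9 of 53), against 10.2% over all genes, and the HT share was 40.7% (33 of 81), against 28.9%.

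By class, fibrillar genes had 15 of 36 pSHF peaks restricted (41.7%, 25.5 to 59.2) and 21 of 40 HT peaks (52.5%, 36.1 to 68.5). Basement membrane genes had 4 of 11 pSHF peaks restricted (36.4%, 10.9 to 69.2) and 16 of 25 HT peaks (64%, 42.5 to 82.0). The other collagens had 61 of 113 pSHF peaks restricted (54.0%, 44.4 to 63.4) and 55 of 103 HT peaks (53.4%, 43.3 to 63.3). The intervals of the 3 classes overlapped each other in both lists, so the classes could not be separated by these shares at this number of peaks. The share over all genes lay inside the interval of each class, except for the other collagens in the pSHF list, whose interval lay above it.

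**Figure D1:**
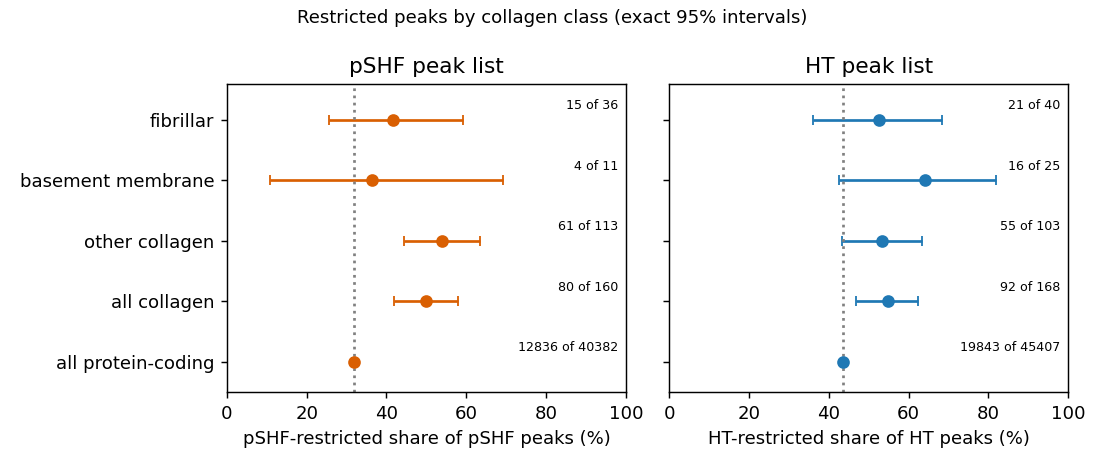
The x axis gives the restricted share of peaks in percent, in the pSHF list (left) and the HT list (right), by collagen class and over all protein-coding genes, with exact 95% intervals as bars and counts at the right edge. The dotted line is the share over all genes, 31.8% in pSHF and 43.7% in HT; the pSHF share of all collagen genes is 50% and the HT share is 54.8%.

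Gene by gene, 40 of the 44 collagen genes had at least 1 peak and 35 had a restricted peak. Of these 35, 13 had more pSHF-restricted peaks (37.1%, against 29.5% of all genes with a restricted peak) and 16 had more HT-restricted peaks (45.7%, against 57.9%), and 6 had equal numbers. In 26 genes both lists held restricted peaks. An excess of at least 2 peaks toward pSHF was seen in 7 genes (15.9% of 44, against 4.98% of all genes) and toward HT in 10 genes (22.7%, against 12.9%). All genes here include 5353 without a peak, and their median length is 17.3 kb, against 114 kb for collagen genes. The part of gene length in these shares was not tested. No peak was found for Col11a2, a minor fibrillar collagen, Col10a1 of hypertrophic cartilage, Col7a1 of skin anchoring fibrils or Col17a1 of hemidesmosomes.

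**Figure D2:**
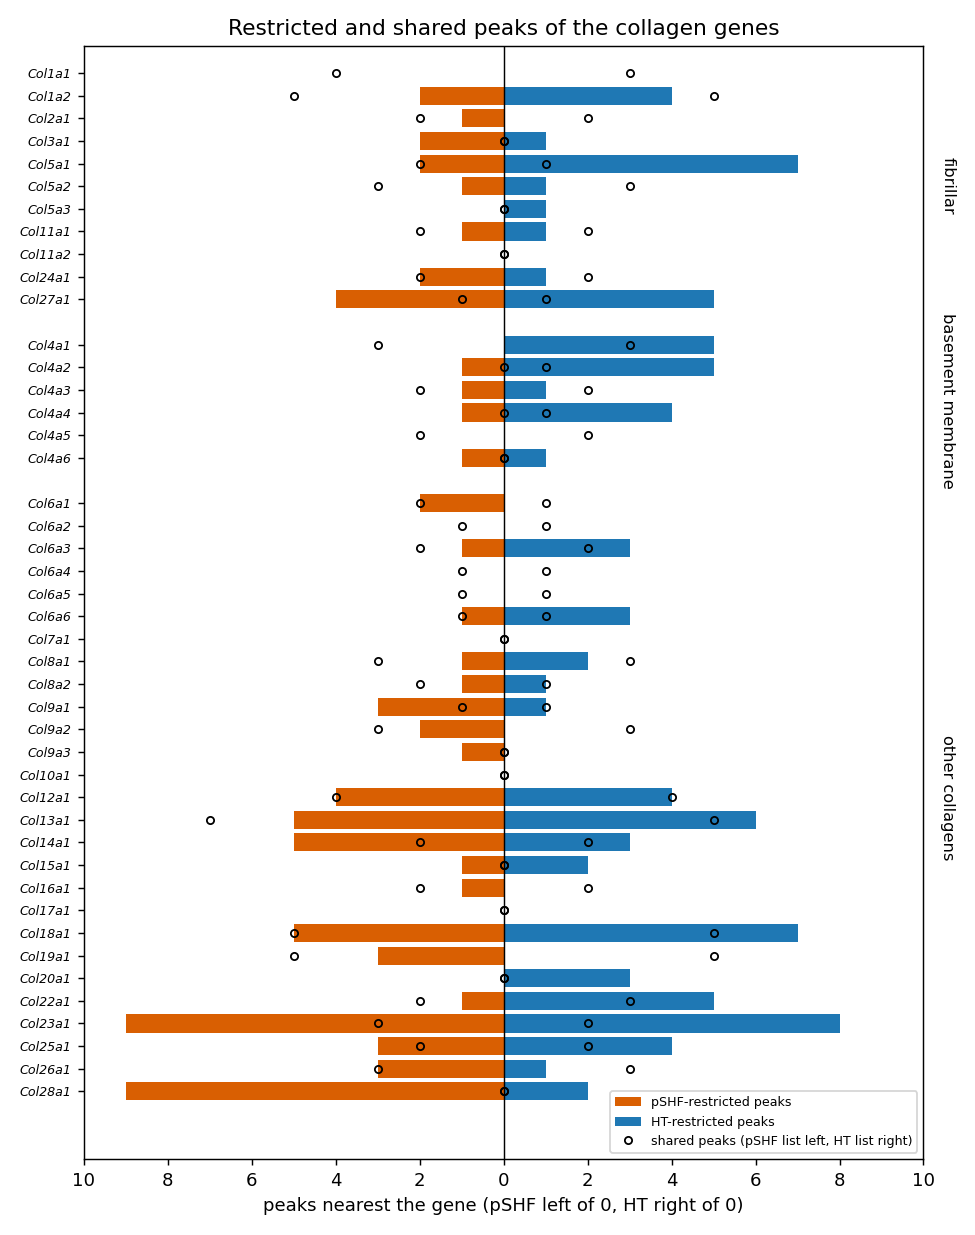
Bars give the number of pSHF-restricted peaks (left of 0) and HT-restricted peaks (right of 0) of each collagen gene, and circles the shared peaks of each list, with genes grouped by class. Col28a1 has 9 pSHF-restricted and 2 HT-restricted peaks, and Col4a1 has 0 and 5.

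Among fibrillar genes the widest gap was at Col5a1, the chain of collagen V that helps start fibrils. It had 2 pSHF-restricted and 7 HT-restricted peaks across its 153 kb body and flanks (chr2:27886381-28039510). The HT-restricted peaks had folds of 3.92 to 6.93 and summits of 7 to 16 reads, and 3 of them had −log10 q of at least 5. The pSHF-restricted peaks had folds of 3.59 and 3.90 with 7 and 8 reads, and neither reached that level. The start of the gene was covered in both lists.

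Col1a2 (chr6:4505618-4541543) had 2 pSHF-restricted and 4 HT-restricted peaks, none with −log10 q of at least 5, and 5 shared peaks in each list. All its peaks but the promoter peak lay outside the gene body, the farthest 88367 bp before it in the pSHF list. Its partner chain Col1a1 (chr11:94936224-94953042) had no restricted peak and 4 pSHF and 3 HT peaks, all shared. The strongest of them lay 7233 bp outside the gene body, at chr11:94928746-94929270 in the pSHF list with a fold of 6.64 and 25 reads, and in the HT list with a fold of 11.1 and 34 reads.

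Col27a1 had 4 pSHF-restricted and 5 HT-restricted peaks and 1 shared peak in each list. Its strongest restricted peak was in the HT list, at chr4:63310482-63310792, with a fold of 8.17 and 23 reads. Col3a1, the collagen of distensible tissues such as vessel wall, had 2 restricted peaks in pSHF and 1 in HT, all inside the gene, and no shared peak. Its neighbour Col5a2 had 1 restricted peak in each list and 3 shared peaks in each list.

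Col2a1, the main collagen of cartilage that is also made by the notochord, had 1 pSHF-restricted and no HT-restricted peak. It also had 2 shared peaks in each list, 1 at a gene end and 1 inside the gene. The shared peak inside the gene had a fold of 4.85 with 20 reads in pSHF and of 8.4 with 27 reads in HT. The restricted peak lay inside the gene at chr15:97990043-97990459 with a fold of 5.51, 24 reads at its summit and −log10 q of 9.89. These were the most reads of any pSHF-restricted collagen peak. Notochord and sclerotome markers held 15 pSHF-restricted and 8 HT-restricted peaks, and all 7 of them had a peak. The pSHF list gave 65.2% of these restricted peaks, against 39.3% over all genes. The notochord genes T and Noto had 1 restricted peak in each list, and Sox9 had 3 in each. The 4 genes with more in pSHF were Pax1 (4 and 2), Pax9 (2 and 1), Nkx3-2 (1 and 0) and Uncx (3 and 0). The part of notochord or sclerotome cells in the pSHF-restricted Col2a1 peak was not tested. Col11a1 had 1 restricted peak in each list, with a fold of 4.85 in pSHF and of 8.77 in HT. Col24a1 had 2 restricted peaks in pSHF and 1 in HT.

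Among restricted peaks of the basement membrane genes, 4 were of the pSHF list and 16 of the HT list. Of the 6 genes, 3 had more HT-restricted peaks, none had more pSHF-restricted peaks and 3 were equal, counting Col4a5 with none of either. The pSHF list gave 20% of these restricted peaks, against 39.3% over all genes. Without peaks near gene ends the pSHF-restricted share of pSHF peaks was 57.1% (4 of 7), against 44.6% over all genes, and the HT share 83.3% (15 of 18), against 57.6%.

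Of the restricted collagen IV peaks, 1 of pSHF and 10 of HT were at the head-to-head pair Col4a1 and Col4a2, the chains found in nearly all basement membranes. Col4a1 (chr8:11198423-11312889) had 0 pSHF-restricted and 5 HT-restricted peaks, and Col4a2 (chr8:11312805-11449287) had 1 and 5. The start that the 2 genes share was covered in both lists, with a fold of 4.42 (percentile 37.5) in pSHF and of 4.27 (percentile 20.1) in HT. The strongest HT-restricted peak lay inside Col4a1 at chr8:11274492-11274791, with a fold of 7.74, 19 reads and percentile 72.7, and the nearest pSHF peak was 37733 bp away. Others of Col4a1 had folds of 6.04 inside the gene and of 6.37, 4.93 and 4.41 beyond it. The 5 of Col4a2 were weaker, with folds of 3.71 to 4.76 and 7 to 9 reads. At −log10 q of at least 5, the pair kept 0 pSHF-restricted and 3 HT-restricted peaks, all of them assigned to Col4a1.

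Endothelial and endocardial markers also had more peaks restricted to HT, with 14 pSHF-restricted and 38 HT-restricted peaks. Of these 8 genes, all had peaks in the lists and 7 had more HT-restricted peaks (87.5%, against 57.9% of all genes with a restricted peak). The pSHF list gave 26.9% of their restricted peaks, against 39.3% over all genes. Kdr had 3 and 10, Cdh5 had 2 and 6, and Pecam1 had 1 and 5. For atrial cardiomyocyte markers (1 and 28) the pSHF list gave 3.45% of restricted peaks, and for epicardial markers (9 and 13) 40.9%. The lean to HT was thus not particular to endothelial and endocardial markers. The part of endothelial, cardiomyocyte or epicardial cells in the Col4a1 and Col4a2 peaks was not tested.

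**Figure D3:**
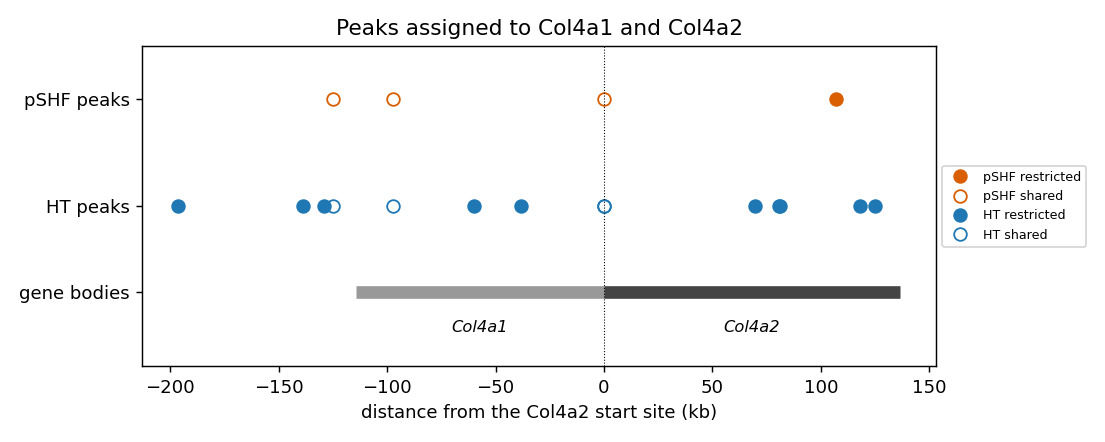
Each circle is a peak assigned to Col4a1 or Col4a2, placed by its distance in kb from the Col4a2 start, in the pSHF list (upper row) and the HT list (middle row), with gene bodies below. Filled circles are restricted (1 in pSHF and 10 in HT, of which a pair inside Col4a2 coincides at this scale), open circles are shared.

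The other collagen IV pairs had fewer restricted peaks. Col4a3 and Col4a4, chains of the kidney glomerular membrane, had 2 pSHF-restricted and 5 HT-restricted peaks together, 4 of the HT peaks at Col4a4. At Col4a4 the strongest restricted peaks of the lists lay 9 bp apart inside the gene, with a fold of 5.92 in pSHF (chr1:82476909-82477117) and of 6.06 in HT (chr1:82476780-82476900). This site is restricted in both lists by the 1 bp rule although both lists have a peak there. Col4a5 and Col4a6, on the X chromosome, had 1 restricted peak in each list, both at Col4a6.

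The other collagens differed widely among themselves. Col28a1, a collagen with von Willebrand factor A domains, had 9 pSHF-restricted and 2 HT-restricted peaks and no shared peak. All 11 were low, with folds of 3.77 to 5.39 and 6 to 9 reads in pSHF and a fold of 3.84 with 6 reads for both in HT. None had −log10 q of at least 5, so no difference was left at that threshold. A pair of them lay 5 bp apart in the 2 lists. Col23a1, a transmembrane collagen, had 9 and 8, all inside its 294 kb body. Col28a1 and Col23a1 held 18 of the 80 pSHF-restricted collagen peaks.

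Fibril-associated collagens, which sit on the surface of fibrils, held 20 restricted peaks of pSHF and 16 of HT over 9 genes. Toward pSHF stood Col19a1 (3 and 0), Col9a1 (3 and 1), Col9a2 (2 and 0) and Col14a1 (5 and 3). Col9a1 and Col19a1 are neighbours on chromosome 1 and together had 6 and 1. The strongest of these was at Col19a1, chr1:24378595-24378768, with a fold of 6.46 and 11 reads, at percentile 74.8 of the pSHF list. Toward HT stood Col22a1 (1 and 5) and Col20a1 (0 and 3). Col14a1 had no pSHF-restricted peak with −log10 q of at least 5 and 2 HT-restricted ones, so its order turned round at that threshold. At that threshold the differences of Col9a1 and Col9a2 were 0. Collagen IX chains are, like Col2a1, known from cartilage, and the part of cartilage-forming cells in the Col9a1 and Col9a2 peaks was not tested.

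The highest collagen folds of both lists stood 25133 bp outside Col19a1 by the pSHF list, at chr1:24612978-24613257 in pSHF (15.3, 44 reads) and chr1:24613004-24613230 in HT (30.2, 88 reads). The region is known as a nuclear copy of mitochondrial DNA in this build, and the part of mitochondrial reads in the signal was not tested. It is shared. Leaving it out kept the shares of all collagen genes and of the other collagens within their intervals. It removes no fibrillar or basement membrane peak.

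Col12a1, which links fibrils to surrounding matrix, had 4 restricted and 4 shared peaks in each list. At 1 shared site the pSHF peak had a fold of 3.77 with 6 reads at its summit, and the HT peak over it, at chr9:79617393-79617737, had a fold of 13.2 with 31 reads. At another the pSHF fold was 3.11 with 6 reads, and the HT fold, at chr9:79637948-79638180, was 9.86 with 19 reads. At Col9a1 the shared peak had a fold of 7.34 with 26 reads in pSHF, at chr1:24195916-24196568, and of 3.45 with 6 reads in HT. For 8 shared HT peaks the percentile lay at least 50 from that of the overlapping pSHF peak. The pSHF percentile was the higher in 6, at Col22a1, Col9a1, Col6a3, Col6a4, Col1a2 and Col4a4. The HT percentile was the higher in 2, both at Col12a1. The pSHF peak at Col22a1 also overlapped a stronger HT peak, with a fold of 9.43. That at Col4a4, with a fold of 5.49 and percentile 63.0, also overlapped a stronger HT peak, with a fold of 5.48 and percentile 48.5. Folds and percentiles of the lists are set side by side here, and their differences could not be tested. Percentiles from lists of different length show no change, so these counts do not give a difference in strength between the tissues. These genes were named after their values were seen.

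Collagen VI chains held 4 restricted peaks of pSHF and 6 of HT over 6 genes. Col6a1 had 2 and 0, Col6a3 had 1 and 3, and Col6a6 had 1 and 3, while Col6a2, Col6a4 and Col6a5 had none of either. The strongest restricted collagen peak of all was an HT peak inside Col6a6, at chr9:105697759-105698171, with a fold of 11.7, 30 reads and percentile 90.9 of its list. The nearest pSHF peak lay 39464 bp away.

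Multiplexins are collagens of basement membrane zones, and the C-terminal fragment of Col18a1 is endostatin. Col18a1 had 5 pSHF-restricted and 7 HT-restricted peaks, of which 1 and 4 had −log10 q of at least 5. A pair of its HT-restricted peaks, at chr10:77159121-77159382 and chr10:77159609-77159926, held 23 reads each with folds of 6.32 and 6.28. Col15a1 had 1 and 2. With both counted as basement membrane collagens, that class had 10 of 22 pSHF peaks restricted (45.5%) and 25 of 39 HT peaks (64.1%). The transmembrane genes Col13a1 and Col25a1 had 5 and 6, and 3 and 4, and Col26a1 had 3 and 1. The short-chain genes Col8a1 and Col8a2 had 1 and 2, and 1 and 1. Col16a1 and Col9a3 had 1 and 0 each.

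Position within the gene was counted next. Of the collagen peaks, 20% in pSHF and 16.7% in HT lay at gene ends, against 38.5% and 31.8% over all genes. Inside genes lay 58.1% in pSHF and 58.9% in HT, against 36.8% and 41.7%. Exons and introns were not told apart. Inside genes, 55 of 93 pSHF peaks were restricted (59.1%, 48.5 to 69.2), against 44.8% over all genes, and 64 of 99 HT peaks (64.6%, 54.4 to 74.0), against 58.9%. At gene ends, 9 of 32 pSHF peaks were restricted (28.1%, 13.7 to 46.7), against 11.3%, and 5 of 28 HT peaks (17.9%, 6.06 to 36.9), against 13.9%. Between genes the shares were 45.7% in pSHF, against 44.4%, and 56.1% in HT, against 55.5%. Within each position the pSHF intervals inside genes and at gene ends lay above the share over all genes, and those of HT included it.

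Collagen genes are long, with a median of 114 kb against 17.3 kb over all genes. Per 100 kb of gene, they held 2.15 pSHF and 2.20 HT peaks, against 2.34 and 2.60 over all genes. Restricted peaks inside them numbered 1.16 in pSHF and 1.25 in HT per 100 kb, against 0.752 and 1.19. Basement membrane genes stood at 0.382 pSHF-restricted and 1.24 HT-restricted peaks per 100 kb. Their HT-restricted density was thus near that of all genes, and their pSHF-restricted density, from 4 peaks, was below it. With shared peaks counted too, they held 0.955 pSHF peaks per 100 kb, against 2.34 over all genes, and 2.01 HT peaks, against 2.60.

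Restricted collagen peaks had lower median folds than shared ones. In pSHF the median fold was 4.31 for restricted and 4.99 for shared peaks, with 8 and 12.5 reads at the summit, and 9 of 80 restricted against 44 of 80 shared peaks had −log10 q of at least 5. In HT the medians were 4.76 and 5.52, with 9 and 12 reads, and 33 of 92 restricted against 48 of 76 shared peaks reached that level. Among restricted peaks that level was reached by 11.3% in pSHF and 35.9% in HT for collagen genes, against 15.5% and 40.7% over all genes. Shared collagen peaks had a median percentile of 53.3 in pSHF and 49.5 in HT, against 64.3 and 67.3 for shared peaks of all genes.

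**Figure D4:**
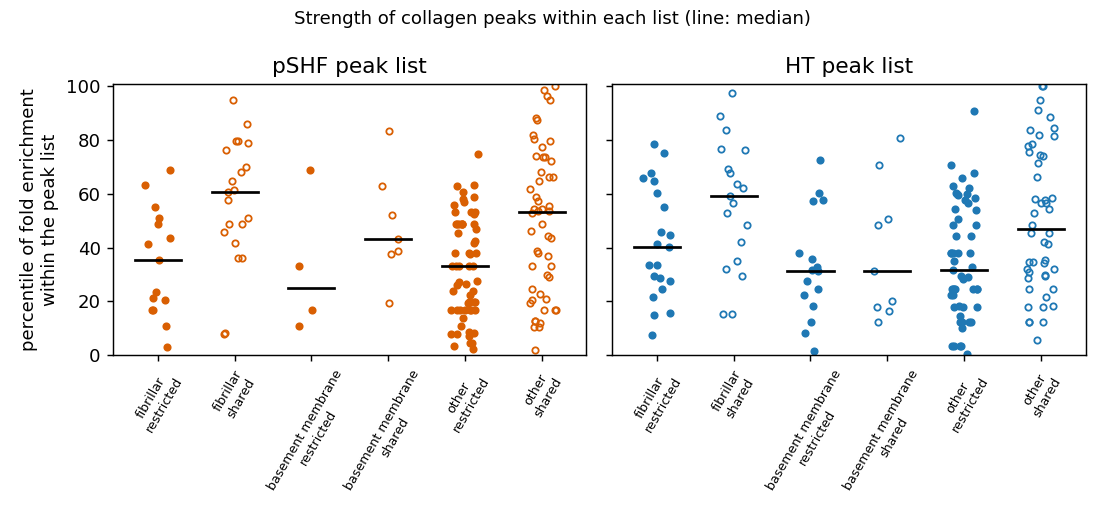
Each point is a collagen peak, with its percentile of fold enrichment within its own list on the y axis (0 to 100), by class and by restricted (filled) or shared (open), for pSHF on the left and HT on the right; lines are medians. Fibrillar shared peaks have the highest medians of the 6 sets in each list, and the restricted sets of pSHF stay below percentile 75.

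The genes that make, bind and cut collagen were counted the same way. Of 29 genes of collagen synthesis and cross-linking, 11 had more pSHF-restricted and 11 more HT-restricted peaks (26 and 28 peaks). Plod2, a lysyl hydroxylase, had 4 and 2, Loxl4, a cross-linking oxidase, had 3 and 0, and P3h2, a prolyl hydroxylase that acts on collagen IV, had 2 and 4. Of 10 receptors, 1 had more pSHF-restricted and 5 more HT-restricted peaks (10 and 25 peaks). Integrin alpha 1, a collagen IV receptor chain (Itga1), had 2 and 8, the kinase receptor Ddr1 had 3 and 8, and Itga11 had 1 and 4. Of 15 other basement membrane genes, 3 had more pSHF-restricted and 9 more HT-restricted peaks (27 and 36 peaks). Nid2, a nidogen, had 1 and 4, the laminin chain Lamc1 had 3 and 5, and Lama2 had 6 and 4. Collagen-cleaving proteases had 2 and 4 peaks over 7 genes. Over all genes the same split was 29.5% to pSHF and 57.9% to HT of genes with a restricted peak. For receptors it was 14.3% and 71.4%, for other basement membrane genes 21.4% and 64.3%, and for synthesis genes 47.8% and 47.8%.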

How the data were processed

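ATAC-seq libraries were made with a Nextera kit from 3 pSHF and 3 HT samples, per the labels' protocols. The submitters' processing notes name MACS2 2.1.1, Picard, Bowtie2 2.3.2 and SAMtools 1.5, with mm10 as genome. Not given in the sources used here are the role and settings of each tool, and whether peaks were called on samples pooled together. The authors deposited 1 peak list per tissue, with 58887 summit lines for pSHF and 60223 for HT. Per summit, the deposited values are a score, a fold enrichment as a ratio, −log10 p and −log10 q, the last never under 1.30.

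Summits with equal intervals were merged, keeping the highest fold, and 40382 pSHF and 45407 HT peaks were assigned to a gene. Genes came from a RefSeq table of GRCm38.p6 without exons. Reads at a summit were recovered from fold and −log10 p, whose Poisson values matched within 0.01 for 100% of summits. Exact Clopper-Pearson 95% intervals are given with shares, for counting error over peaks alone. Peaks of 1 gene share a locus. Named with values were genes whose restricted counts differ by at least 2, the genes with most peaks in each class, and the strongest peaks. The nearest gene need not be the gene that a site regulates. Overlap, threshold, distance, assignment, position, summit, class and 1-gene alternatives were tried. Protein features were planned and were not analysed here. The collagen genes and the lists were chosen with earlier results of these data known. Steps were tested on simulated peaks. Python 3.11.15, pandas 2.3.3, numpy 2.4.6, SciPy 1.17.1 and matplotlib 3.10.9 were used.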

Additional observations from a re-analysis of the deposited data

How the results depend on the processing

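Of 92 alternatives over the 8 class shares, 74 left the share inside its 95% interval and 18 did not. Leaving out the strongest Col19a1 locus removes no fibrillar or basement membrane peak, so those shares could not move. Intervals are wide where peaks are few, so a share inside its interval need not be stable. With 50% reciprocal overlap the basement membrane share in pSHF went from 36.4% to 63.6% (7 of 11) and stayed inside. With 50% reciprocal overlap as the rule for shared, the restricted share was 69.4% in pSHF and 70.8% in HT for all collagen genes, 74.3% and 71.8% for the other collagens, and 84% in HT for basement membrane genes, against 52.4% and 57.7% over all genes. With peaks within 1 kb also counted as shared, the pSHF share of all collagen genes was 41.9%, against 24.9% over all genes. At −log10 q of at least 5 it was 17.0% in pSHF and 40.7% in HT for all collagen genes, 16.7% and 34.8% for fibrillar genes, and 15.6% and 42% for the other collagens. At or above the median fold it was 35.2% and 41.5% for all, 40.4% and 41.0% for the other collagens, and 25% in pSHF for fibrillar genes. Without peaks near gene ends the basement membrane share in HT was 83.3%, against 57.6% over all genes. Fewer peaks remain in the stricter sets, and over all genes the shares were lower there too, at 10.2% in pSHF and 28.9% in HT for −log10 q of at least 5 and 16.2% and 25.1% at the median fold.

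For the 17 genes with a difference of at least 2 restricted peaks, 170 alternatives left 135 differences within 1.5 times their value, moved 33 further and turned 2 round. Leaving out the strongest Col19a1 locus removes only shared collagen peaks and could change none of these differences. Its results among the 135 were therefore fixed in advance. At −log10 q of at least 5 the difference was 0 for Col28a1, Col1a2, Col26a1, Col4a2, Col4a4, Col6a3, Col9a1 and Col9a2. There Col4a1, Col5a1 and Col18a1 stood at -3 each, Col18a1 up from -2, and Col6a6 stood at -2. Col20a1 and Col22a1 stood at -1 each, and Col19a1 and Col6a1 at 1 each. Col14a1 stood at -2 at −log10 q of at least 5 and Col6a3 at 1 at the median fold; the cause was not tested beyond the fewer peaks that remain. No paired analysis was possible because the lists carry no replicate columns, and leaving out a replicate was not possible for the same reason. Restricted collagen peaks had medians of 8 summit reads in pSHF and 9 in HT, where the minimum was 5, and the part of depth in their absence from a list was not tested.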

Other observations

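Some restricted sites lay beside a peak of the other list. Of the restricted collagen peaks, 13 of 80 in pSHF and 12 of 92 in HT had a peak of the other list within 1 kb, 16.3% and 13.0%, against 21.5% and 14.1% over all genes. The closest were at Col28a1 (5 bp apart), Col4a4 (9 bp), Col18a1 (38 bp), Col14a1 (47 bp) and Col23a1 (51 bp).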
